A study of Rattus norvegicus with 4 samples.

Results

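Core splicing factor genes were followed in rat neural stem/progenitor cells (NSPCs) on 2 culture platforms and in 2 media. They were taken by symbol alone, as every gene whose symbol starts with Srsf, Hnrnp, Snrp, Sf3a, Sf3b, Prpf or U2af, which gave 63 of the 16881 symbols in the count tables. By prefix these were 11 Srsf, 18 Hnrnp, 11 Snrp, 3 Sf3a, 6 Sf3b, 12 Prpf and 2 U2af genes. Of the 63, 62 had at least 10 counts in at least 1 library and were among the 10516 genes tested. The exception was Srsf12, with 0 counts in every library, where 3 counts, the limit that a count of 0 allows, correspond to 0.451 to 0.48 CPM (counts brought to one library size).

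Splicing removes introns from pre-mRNA through the stepwise assembly of small nuclear ribonucleoproteins (snRNPs) on each intron. U1 pairs with the 5' splice site, U2AF binds the 3' splice site and helps U2, with its SF3a and SF3b subcomplexes, onto the branch point, and the U4/U6.U5 tri-snRNP then joins and is remodelled into the active enzyme. SR proteins (Srsf genes) mostly promote the use of exons to which they bind, while many heterogeneous nuclear ribonucleoproteins (hnRNPs) package transcripts and often act in the opposite sense. In the nervous system the balance of these factors is known to shape alternative splicing as progenitors become neurons.

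All cells were labelled wild type (WT) and grown either on PUCL or on PUCL@CNT1, which the series title describes as an electroconductive nanohybrid scaffold. Cells in maintenance medium (knockout DMEM/F12 with StemPro Neural Supplement and antibiotics) were taken at 24 h. Cells in differentiation medium (B-27 Plus Neuronal Culture medium) had a further 1.5 d after the switch, so that medium and time in culture changed together and their effects cannot be told apart. Each of the 4 combinations was 1 library made from 500 ng of total RNA, so no group had replicates and any pair compares 2 libraries. The 4 values of a gene are given below in the order PUCL and PUCL@CNT1 in maintenance medium, then PUCL and PUCL@CNT1 in differentiation medium.

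The libraries held 6035848 to 6855984 counts, and 9584 to 9842 symbols had a count in each. Ribosomal RNA entries took 8.46% to 13.4% of counts. Of 12 neural stem/progenitor markers, 10 were tested and 3 rose with the medium in edgeR, with summed levels of 6989.3, 7261.9, 8894.8 and 11109.3 CPM, while Msi1 was at 0 in all libraries and Hes5 had 2 counts over the 4 libraries. Of 8 oligodendrocyte lineage markers 4 rose (summed levels 919, 830, 1531.7 and 1537.8), and of 6 tested astrocyte markers 1 rose (520, 502, 993 and 481, with Slc1a2 at 0). None of 9 tested neuron markers passed the threshold (289, 282, 207 and 120, with Neurod1 at 0), and 6 of 7 microglia markers were at 0 in all libraries. Of 7 endothelial markers, Pecam1, Cdh5, Tek and Vwf were at 0 in all libraries. Kdr (95, 69, 0 and 71 counts), Flt1 (0, 24, 18 and 125) and Cldn5 (0, 17, 0 and 0) had counts. Among mural cell and fibroblast markers 1 of 5 tested fell (1084.1, 763, 501 and 374, with Dcn, Lum and Rgs5 at 0). The summed levels of the stem/progenitor, oligodendrocyte lineage and neuron markers moved with the medium on both platforms. The stem/progenitor sum was mostly Vim (28449, 29953, 31121 and 50754 counts), and the neuron sum mostly Elavl4 and Map2. All 10 tested stem/progenitor markers had ratios above 0 on PUCL, while on PUCL@CNT1 7 were above 0 and 3 below. Of the 9 tested neuron markers, 7 had ratios below 0 and 2 above on each platform. The summed level of mural cell and fibroblast markers also moved with the medium on both platforms, but it was mostly Acta2 (6920, 4664, 3223 and 2279 counts). The 5 tested genes of that list all had medium ratios below 0 on PUCL, while on PUCL@CNT1 3 were above 0 and 2 below. The sum of astrocyte markers was higher in differentiation medium on PUCL alone, mostly through S100b (683 to 3939 counts). Of the 6 tested astrocyte markers, 4 had ratios above 0 there and 2 below. The part of all these markers in the results on splicing genes was not tested. In bulk RNA, fewer cells of a type and less RNA per cell cannot be told apart.

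The libraries read the 3' ends of transcripts, so levels are given as CPM with TMM factors (trimmed means of M values) and are not divided by gene length. Log2 ratios of a pair of libraries carry an exact 95% binomial interval, which covers counting error only. A pair was described by size: the ratio had to reach 2-fold, and the bound nearer to no change had to be past 1.5-fold. The test of medium was a quasi-likelihood F test in edgeR over all 10516 genes with platform as an additive term, adjusted by the Benjamini-Hochberg method at a threshold of 0.05. Genes given with values in every library were picked by a fixed rule (those past the threshold or the size rule, the 2 with the highest level in each prefix family, and Snrpb and Snrpn). Srsf7, Srsf11, Hnrnpa1, Hnrnpab, Hnrnpd, Hnrnpu, Hnrnph3, Hnrnpk, Hnrnpm, Hnrnpul2, Snrpa, Snrpb2, Snrpd2, Snrpf, Snrpg, Sf3b1, Sf3b3, Sf3b4, Sf3b5, Prpf3, Prpf6, Prpf8, Prpf38a and Prpf38b were chosen after their values were seen.

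U2af1 fell after the switch to differentiation medium on both platforms, and with Prpf40b it was 1 of 2 splicing factor genes past the edgeR threshold. U2af1 encodes the small subunit of U2AF, which reads the AG at the 3' splice site, and Prpf40b encodes a homolog of yeast Prp40 that associates with the U1 snRNP. No member rose and 2 of 62 fell (3.23%), where 1.8% of all tested genes rose and 1.02% fell. DESeq2 and limma-voom gave 0 higher too. A count of 2 genes is too small to set the members apart from that background. At an unadjusted p under 0.05 in edgeR there were 12 members (19.4%), all lower in differentiation medium. Over all genes there were 1273 (12.1%), of which 654 were higher and 619 lower. In the edgeR fit limited to genes averaging 300 counts or more, there were 10 of 53 members and 737 of 3619 genes. In that range the members' share was therefore not above that of all genes.

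The regions around the transcript starts of these 2 genes are shown because they are the only members whose medium change passed the threshold. They are RefSeq sequences of the GRCr8 assembly from 250 bases before to 50 bases after each start, U2af1 at chr20:9755045-9755344 on the minus strand and Prpf40b at chr7:132318418-132318717 on the plus strand. Capitals mark matches on either strand to 5 motifs, none of which contains another: the CCAAT box (CCAAT or ATTGG), the GC box (GGGCGG or CCGCCC), the TATA box (TATAAA or TTTATA), the ETS core (CCGGAAG or CTTCCGG) and the cAMP response element (CRE, TGACGTCA).
U2af1: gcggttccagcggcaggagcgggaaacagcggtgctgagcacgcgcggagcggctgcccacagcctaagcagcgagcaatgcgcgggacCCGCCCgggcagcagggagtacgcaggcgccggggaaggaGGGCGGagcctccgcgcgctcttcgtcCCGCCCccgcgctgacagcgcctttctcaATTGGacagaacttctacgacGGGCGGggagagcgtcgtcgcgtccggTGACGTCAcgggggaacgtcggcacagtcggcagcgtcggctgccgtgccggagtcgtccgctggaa
Prpf40b: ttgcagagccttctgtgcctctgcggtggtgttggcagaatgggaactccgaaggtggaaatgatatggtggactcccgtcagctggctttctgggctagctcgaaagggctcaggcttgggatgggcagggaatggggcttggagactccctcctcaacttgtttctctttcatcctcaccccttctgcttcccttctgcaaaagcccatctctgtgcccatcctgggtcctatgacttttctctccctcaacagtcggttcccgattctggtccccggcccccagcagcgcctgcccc
The U2af1 window was 71.3% G or C and held 4 GC boxes, 1 CCAAT box and 1 CRE. The Prpf40b window was 58.0% G or C and held none of the 5 motifs, so the 2 windows shared no motif of the set. RefSeq windows were matched for 61 of the 63 members, and Sf3b2 was among those without an entry. Among the 60 tested members with a window, the CCAAT box was found in 33 (55.0%) against 37.8% of 8026 tested genes, and the ETS core in 18 (30%) against 18.3%. The GC box was found in 34 (56.7%) against 64.2%, the TATA box in 6 (10%) against 6.62%, and the CRE in 2 (3.33%) against 3.39%. A match of letters is a description of the window and not of a bound site.

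U2af1 had scaled levels of 881, 1119.7, 528 and 534 CPM, from 5808, 6995, 3415 and 3552 counts. Both differentiation libraries lay below both maintenance libraries, and the 2 differentiation libraries were within 0.02 of each other on the log2 scale. The level in differentiation medium was 1.67-fold lower on PUCL (log2 ratio -0.74, interval -0.80 to -0.68) and 2.1-fold lower on PUCL@CNT1 (-1.07, -1.13 to -1.01). The fitted log2 change with medium was -0.90 (SE 0.178, edgeR adjusted p 0.000483), which ranked 49 by p among 10516 genes. The call held in 9 of 9 other tests that used all 4 libraries, with adjusted p from 1.46e-06 to 0.0244. When the platform term and 1 library were left out together, it was lost in 4 of 4 tests, with adjusted p of 0.0528 to 0.836, although the fitted change stayed between -1.08 and -0.73. The highest of these p-values came without the PUCL@CNT1 maintenance library.

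The paralog U2af1l4, which encodes a second small subunit of U2AF, was present at a far lower level, with 6.07, 9.92, 9.13 and 13.7 CPM from 40, 62, 59 and 91 counts. Its ratios with medium were 0.58 on PUCL (interval -0.01 to 1.21) and 0.46 on PUCL@CNT1 (-0.02 to 0.95), so neither lay beyond counting error, and the fitted change did not pass (0.53, SE 1.28, edgeR adjusted p 0.956). U2af2, the large subunit, is not analysed here. The summed level of the U2af pair was 887, 1129.6, 537 and 548 CPM, and U2af1 made up nearly all of it.

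Prpf40b had 85.2, 93.3, 39.8 and 34.1 CPM, from 562, 583, 257 and 227 counts. Again both differentiation libraries lay below both maintenance libraries, 2.14-fold lower on PUCL (log2 ratio -1.10, interval -1.32 to -0.88) and 2.73-fold lower on PUCL@CNT1 (-1.45, -1.68 to -1.23). Its fitted change was -1.27 (SE 0.383, edgeR adjusted p 0.0473), close to the threshold. The call was kept in 3 of 9 other tests with all libraries (adjusted p 0.0412 to 0.218) and in 0 of 4 that left out the platform term and a library (0.0986 to 0.757). The fitted change was -1.34 to -1.27 in the former and -1.38 to -1.17 in the latter. DESeq2 gave the highest adjusted p with all libraries, 0.218.

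**Figure D1:**
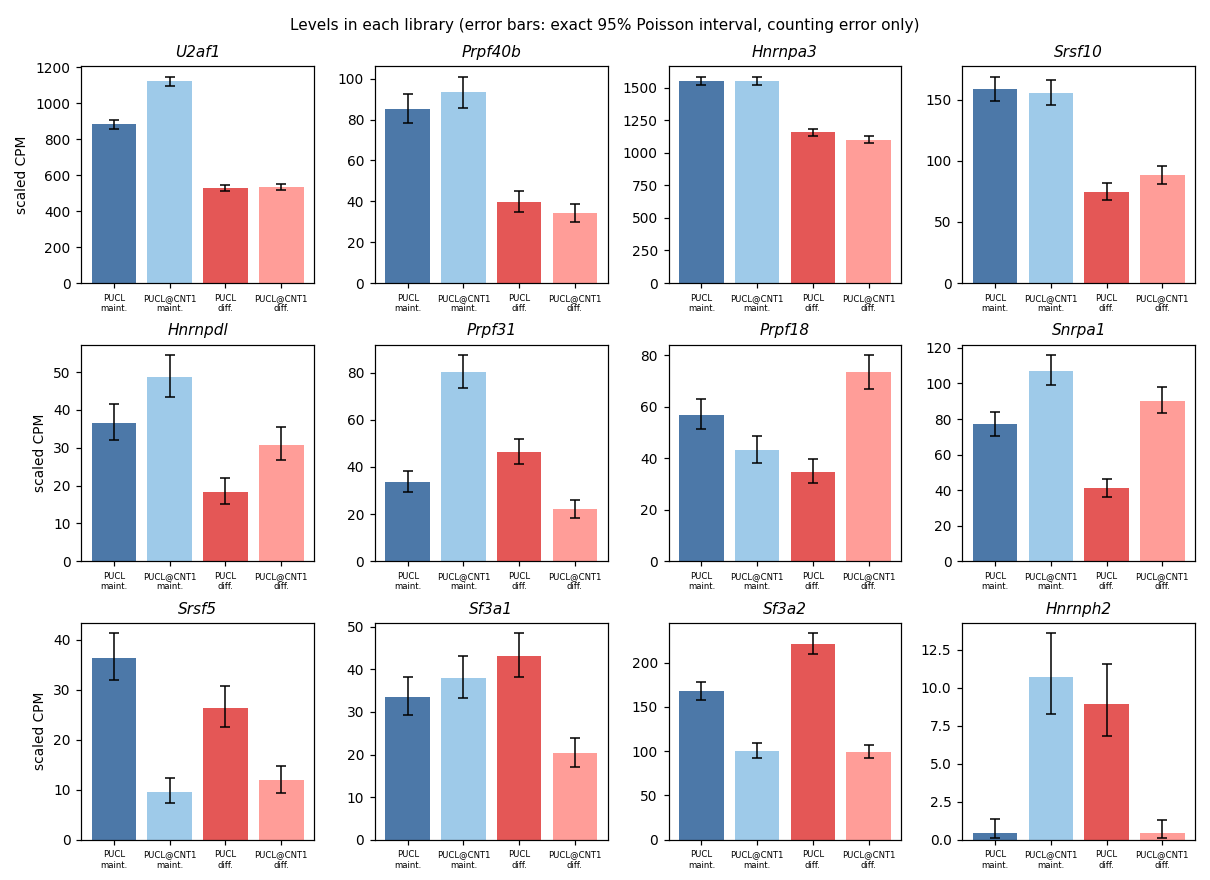
Scaled levels (CPM, each panel with its own vertical axis) of 12 splicing factor genes in the 4 libraries, 1 bar per library with an exact 95% Poisson interval that covers counting error only. U2af1 and Prpf40b were lower in both differentiation libraries, while Hnrnph2, Prpf31, Prpf18 and Sf3a1 went opposite ways on PUCL and PUCL@CNT1.

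Across the whole set, small ratios below 0 with medium were common and large ones rare. Fitted changes lay below 0 for 44 of 62 members (71.0%) against 49.8% of all tested genes, with a median of -0.14 against 0.0. On single platforms the members' median log2 ratio was -0.13 on PUCL (all genes 0.03) and -0.25 on PUCL@CNT1 (all genes -0.02). Ratios below 0 on both platforms were found for 30 members (48.4%) against 28.7% of all genes. Above 0 on both were 10 of 62 members and 3113 of the 10516 genes. The 2 medium ratios come from separate libraries, but the libraries were scaled together. With total counts in place of TMM, 48 members lay below 0 and the median was -0.21, beside a median of -0.07 over all genes.

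These counts are descriptions without a test of the set. The members are abundant genes: 53 of the 62 averaged 300 counts or more per library, against 3619 of the 10516 genes. Among genes of that abundance, fitted changes lay below 0 for 71.7% of members and 52.1% of genes. In the same range the highest library exceeded the lowest by a median of 1.48-fold for members and 1.66-fold for all genes, and by less than 1.5-fold for 27 of 53 members (50.9%) and 34.3% of genes. The edgeR threshold for medium was passed by 3.77% of these members and 6.49% of these genes.

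**Figure D2:**
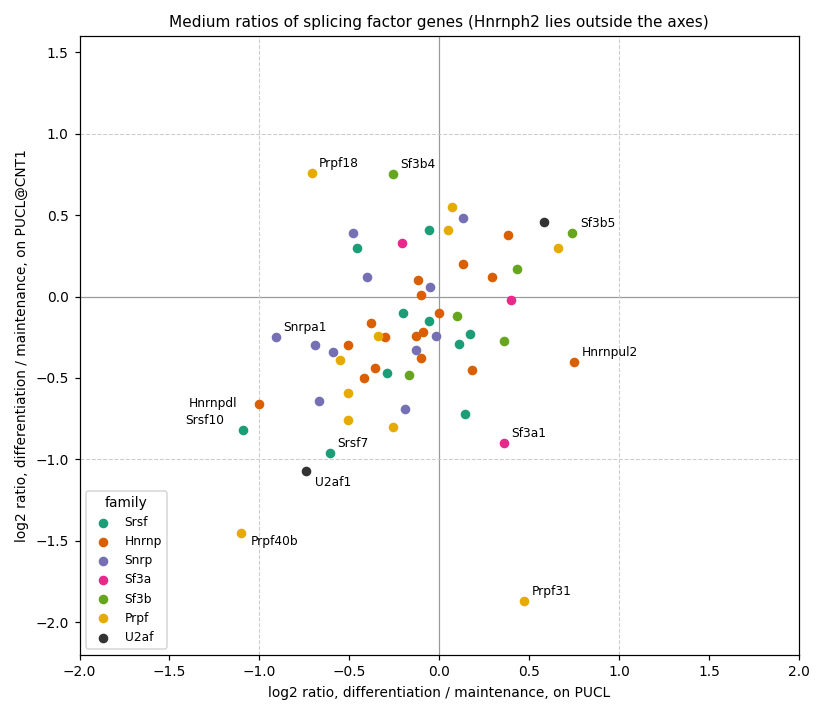
Log2 ratio of differentiation to maintenance medium on PUCL (horizontal) against PUCL@CNT1 (vertical) for tested splicing factor genes, 1 point per gene coloured by prefix family. Most points lie near 0 and more often below it than above, Prpf40b (-1.10 and -1.45) is far below 0 on both platforms, and Hnrnph2 (4.09 and -4.36) lies outside the axes.

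By the size rule, few members stood out in any pair of libraries. On PUCL, 1 member was higher in differentiation medium (Hnrnph2) and 4 were lower (Prpf40b, Srsf10 and Hnrnpdl among them), which is 1.61% and 6.45% of 62 where all genes gave 16.1% and 15.3%. On PUCL@CNT1 no member was higher and 4 were lower (Prpf31, Hnrnph2, Prpf40b and U2af1), 6.45% where all genes gave 16.5% higher and 14.5% lower. The members' shares were thus below the background. Among genes averaging 300 counts or more they were 5.66% against 9.48% on PUCL and 3.77% against 11.3% on PUCL@CNT1, either direction. These rest on 3 and 2 of 53 members, all lower, which is too few to set the members apart from genes of that abundance. Only Prpf40b was past the size rule on both platforms in the same direction.

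The shares of all counts that the members took were 2.13% (exact 95% interval 2.11 to 2.14), 2.24% (2.23 to 2.25), 1.85% (1.84 to 1.86) and 1.83% (1.82 to 1.84). Both differentiation libraries lay below both maintenance libraries by more than counting error. With ribosomal RNA entries left out of the total, the shares were 2.40%, 2.46%, 2.14% and 2.00%, in the same order of media. Summed scaled levels were 20956.6, 21661.8, 18858.5 and 18904.0 CPM.

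**Figure D3:**
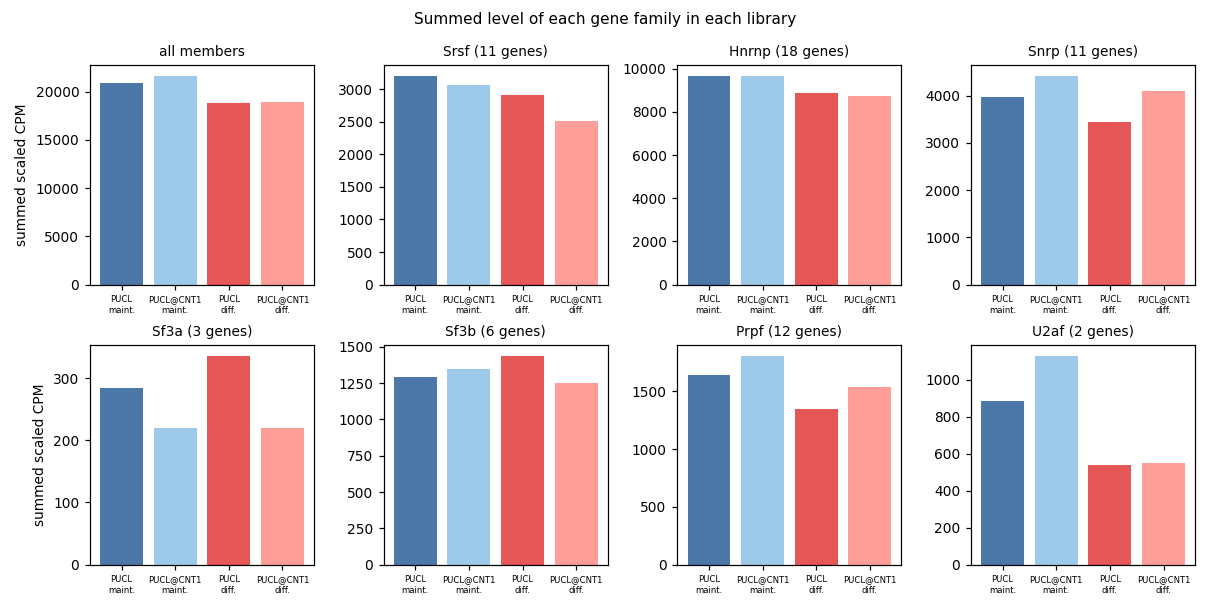
Summed scaled level (CPM, each panel with its own vertical axis) of all members and of each prefix family in each of the 4 libraries, 1 bar per library without an error bar. Hnrnp genes made up the largest sum in every library (8735.6 to 9677.0), and the U2af sum was lower in both differentiation libraries (537 and 548 against 887 and 1129.6).

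Among the SR proteins, fitted changes with medium lay below 0 for 9 of 10 tested genes, with a median of -0.13 and a range of -0.95 to 0.17, and none passed the threshold. Srsf2 and Srsf1, classical activators of exon inclusion, had the highest levels of the family. Srsf2 stood at 888, 806, 853 and 728 CPM and Srsf1 at 580, 645, 474 and 466 CPM. For Srsf1 both differentiation libraries were below both maintenance libraries (log2 ratios -0.29 and -0.47, fitted -0.38, SE 0.191, edgeR adjusted p 0.414), whereas for Srsf2 the ratios were small (-0.06 and -0.15) and the levels of the media overlapped.

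Srsf10, which represses splicing when dephosphorylated, had 159, 156, 74.7 and 88.3 CPM. The 2 maintenance libraries were nearly equal and both differentiation libraries lower, with ratios of -1.09 (interval -1.25 to -0.93) and -0.82 (-0.97 to -0.67). The fitted change of -0.95 (SE 0.301, edgeR adjusted p 0.0666) missed the threshold, and passed it only under total counts (adjusted p 0.0454) among the other settings. Srsf7, with 203, 218, 133 and 112 CPM, had ratios of -0.61 and -0.96 and a fitted change of -0.79 (SE 0.267, adjusted p 0.104). These 2 genes had the lowest fitted changes of the family. The summed level of the family was 3203.9, 3055.8, 2908.4 and 2503.0 CPM, lowest on PUCL@CNT1 in differentiation medium.

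Srsf5, another SR protein, differed mainly between platforms. It had 240, 60, 171 and 79 counts, or 36.4, 9.6, 26.4 and 11.9 CPM. Both PUCL@CNT1 libraries were below both PUCL libraries, with log2 ratios of -1.91 in maintenance medium (interval -2.35 to -1.51) and -1.15 in differentiation medium (-1.56 to -0.76). The fitted platform difference of -1.54 (SE 0.703, edgeR adjusted p 0.618) did not pass. Srsf11, of which the counts were 1102, 1434, 1192 and 927, had a medium ratio of 0.14 on PUCL and one of -0.72 on PUCL@CNT1.

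The hnRNPs of the A/B and D groups, which bind exonic and intronic silencers and 3' ends of mRNAs, all had fitted changes below 0 (6 of 6, median -0.40), and none passed. Their summed level was 3998.9, 4191.4, 3209.9 and 3336.3 CPM, so that both differentiation libraries were lower. Hnrnpa3 had the highest level of all 63 genes on this scale, which is not divided by length, with 1549.6, 1554, 1158.3 and 1101.6 CPM. Its ratios of -0.42 (interval -0.46 to -0.38) and -0.50 (-0.54 to -0.45) were alike on the 2 platforms, and the fitted change was -0.46 (SE 0.157, edgeR adjusted p 0.107). Under total counts (adjusted p 0.041) and limma-voom (0.014) that change passed, so the call for Hnrnpa3 turned on the method.

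Hnrnpab stood at 1004.2, 1045.3, 704 and 852 CPM (fitted -0.40, SE 0.171, edgeR adjusted p 0.259) and Hnrnpa1, the best known silencer-binding hnRNP, at 628, 730, 575 and 618 CPM (-0.18, adjusted p 0.882). Hnrnpdl, a paralog of Hnrnpd, had 36.5, 48.7, 18.3 and 30.8 CPM from 241, 304, 118 and 205 counts. Its ratio was past the size rule on PUCL (-1.0, interval -1.33 to -0.68) and not on PUCL@CNT1 (-0.66, -0.92 to -0.40), with a fitted change of -0.83 (SE 0.517, adjusted p 0.607). Hnrnpd itself was the most even of the 62 genes, with 4332, 4256, 4256 and 4238 counts and a highest library only 1.07-fold above the lowest on the scaled level. The 6 genes of this group thus ran from almost no difference to a 2-fold one.

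The other hnRNPs had no common direction with medium. For the 8 genes outside the A/B, D, F and H groups, 5 fitted changes were below 0 (median -0.03, range -0.27 to 0.20), and the sum was 4433.1, 4200.0, 4512.4 and 4270.6 CPM. Hnrnpl, which binds CA repeats, had 1062.5, 914, 977 and 977 CPM, equal in the 2 differentiation libraries. Hnrnpu, a scaffold of nuclear RNA, spanned only 1.09-fold between libraries. Hnrnpm (776, 892, 947 and 970 CPM, fitted 0.20) and Hnrnpk (698, 668, 766 and 769 CPM, fitted 0.17) lay slightly higher in differentiation medium without passing (edgeR adjusted p 0.812 and 0.894).

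In the F/H group, Hnrnph2 was at the edge of detection in 2 libraries, with 3, 67, 58 and 3 counts. It was high on PUCL@CNT1 in maintenance medium and on PUCL in differentiation medium, and near 0 in the others. The medium ratio was 4.09 on PUCL (interval 2.68 to 6.62) and -4.36 on PUCL@CNT1 (-6.88 to -2.96), and the fitted change of -0.13 had an SE of 4.88 (edgeR adjusted p 1). The closely similar Hnrnph1 had far more counts, and reads that the 2 genes share may have been split between them. Hnrnph3 had 145, 180, 188 and 234 CPM, with ratios of 0.38 on both platforms (fitted 0.38, SE 0.253, adjusted p 0.668).

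**Figure D4:**
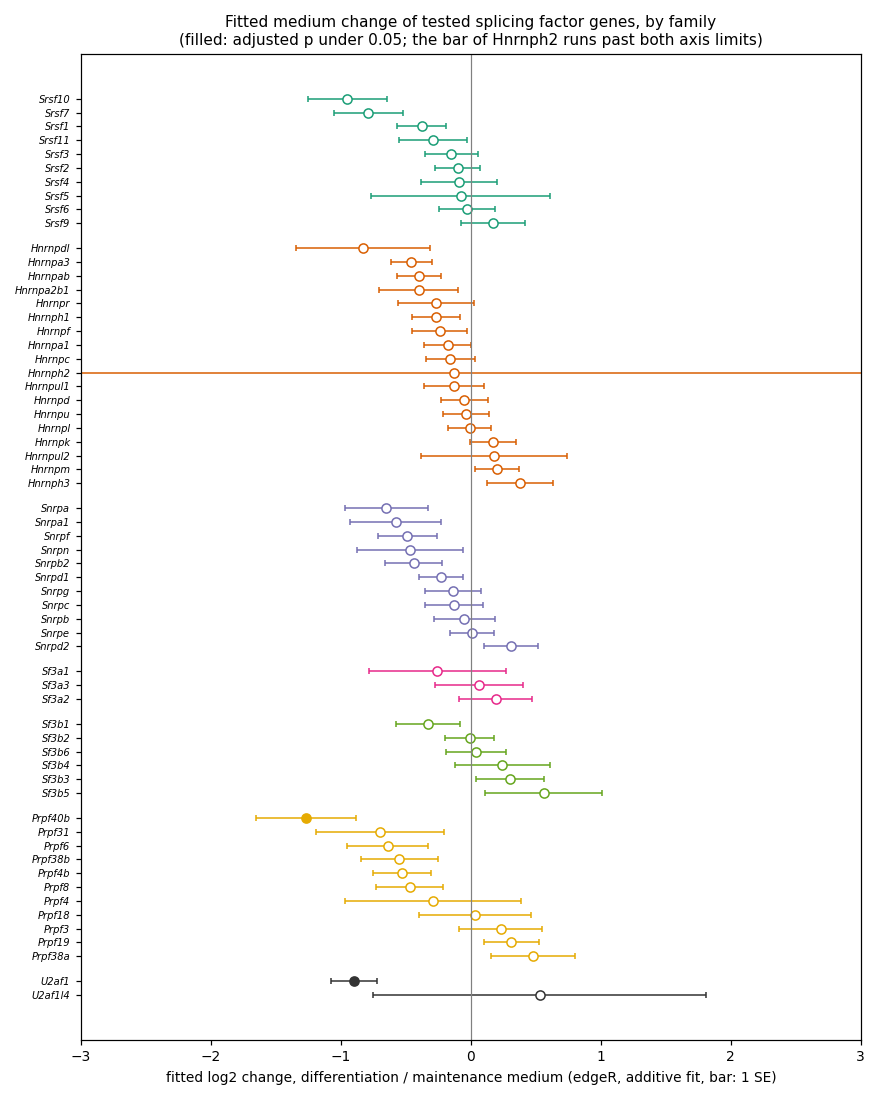
Fitted log2 change from maintenance to differentiation medium (horizontal, edgeR, bars of 1 SE) for tested splicing factor genes, ordered within prefix families. Filled points passed an adjusted p of 0.05 (U2af1, -0.90, and Prpf40b, -1.27), and the bar of Hnrnph2 (SE 4.88) runs past the axes.

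The Sm proteins form the ring shared by U1, U2, U4 and U5, and their transcripts had no single direction. Fitted changes lay below 0 for 5 of 7 genes, with a median of -0.14 (range -0.49 to 0.31). The median ratio was -0.40 on PUCL and 0.06 on PUCL@CNT1, the latter -0.04 under total counts. Summed levels were 3157.6, 3462.6, 2747.3 and 3417.0 CPM, so the PUCL differentiation library was the lowest. Snrpd1 had 846, 1171.6, 773 and 933 CPM, higher on PUCL@CNT1 in both media (log2 ratios 0.47 and 0.27, fitted platform difference 0.37, SE 0.169, edgeR adjusted p 0.618). Snrpe showed the same order of platforms, with 848, 1049.9, 822 and 1093.2 CPM (0.31 and 0.41, fitted 0.36, SE 0.168, adjusted p 0.652).

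Snrpb encodes SmB/B', and Snrpn encodes SmN, which takes its place in much of the brain. Snrpb had 344, 203, 247 and 265 CPM, highest on PUCL in maintenance medium, with medium ratios of -0.48 on PUCL (interval -0.57 to -0.39) and 0.39 on PUCL@CNT1 (0.28 to 0.49). Snrpn had 54.4, 68.8, 36.0 and 54.5 CPM, with ratios of -0.59 (-0.84 to -0.35) and -0.34 (-0.54 to -0.13). Its fitted change was -0.47 (SE 0.407, edgeR adjusted p 0.829), and both ratios of this neuronal form were below 0. Of the remaining Sm genes, Snrpd2 had a fitted change of 0.31, Snrpg of -0.14 and Snrpf of -0.49, with adjusted p of 0.685, 0.951 and 0.339.

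Of the proteins particular to U1, and of the U2 proteins outside SF3a and SF3b, the prefix rule took a pair of genes each. All of these had fitted changes below 0. The U1 gene Snrnp70 has another prefix and is not in the pair, and its fitted change was 0.02 (SE 2.01, 13 to 74 counts). For the U1 pair the summed level was 421, 412, 370 and 326 CPM. Snrpa, the U1 A protein, had 127, 114, 79.7 and 73.6 CPM (ratios -0.67 and -0.64, fitted -0.65, SE 0.317, edgeR adjusted p 0.381). For the U2 proteins A' (Snrpa1) and B'' (Snrpb2) the sum was 397, 547, 322 and 362 CPM. Snrpa1 had 77.2, 107, 41.1 and 90.2 CPM, lowest on PUCL in differentiation medium. There the PUCL@CNT1 library was higher by a log2 ratio of 1.13 (interval 0.92 to 1.35), and by 0.48 (0.31 to 0.65) in maintenance medium. The fitted platform difference was 0.80 (SE 0.35, adjusted p 0.577). Snrpb2 had 320, 440, 281 and 272 CPM and a fitted medium change of -0.44 (adjusted p 0.401).

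Genes of SF3a and SF3b, the U2 subcomplexes that hold the branch point, had fitted medium changes mostly above 0 with TMM and not with total counts. With TMM they were above 0 for 2 of 3 Sf3a genes (median 0.06) and 4 of 6 Sf3b genes (median 0.14), and none passed. Under total counts 2 of 3 Sf3a genes (median -0.01) and 3 of 6 Sf3b genes (median 0.07) were below 0. Sf3b2 had 581, 547, 623 and 504 CPM, Sf3b6, which contacts the branch point adenosine, 227, 332, 292 and 275 CPM, and Sf3b1, its large partner, 220, 230, 195 and 165 CPM. Sf3b5 and Sf3b3 had fitted changes of 0.56 and 0.30 (edgeR adjusted p 0.783 and 0.836), with ratios above 0 on both platforms.

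Sf3a2 had the largest platform difference of the SF3 genes. Its levels were 168, 100, 221 and 99.1 CPM, and both PUCL@CNT1 libraries were below both PUCL libraries, with log2 ratios of -0.74 (interval -0.89 to -0.60) in maintenance and -1.16 (-1.29 to -1.02) in differentiation medium. The fitted platform difference was -0.95 (SE 0.281, unadjusted p 0.00106, edgeR adjusted p 0.125). Sf3a1 had 33.5, 37.9, 43.2 and 20.3 CPM, lowest on PUCL@CNT1 in differentiation medium, where its platform ratio was -1.08 (-1.39 to -0.79). Sf3a3 had 82.9, 80.4, 71.5 and 101 CPM, and its platform ratio in that medium was 0.50 (0.33 to 0.67). The 3 subunits of SF3a therefore differed in opposite directions between platforms in differentiation medium.

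The tri-snRNP genes had fitted medium changes below 0 in 4 of 5 cases (median -0.47), with summed levels of 497, 518, 400 and 383 CPM. Prpf8, the large protein at the heart of the spliceosome, had 220, 201, 150 and 153 CPM (fitted -0.47, SE 0.257, edgeR adjusted p 0.479), and Prpf6, a bridge between U5 and U4/U6, 128, 130, 89.6 and 77.2 CPM (-0.64, SE 0.311, adjusted p 0.387). In both genes each differentiation library was below each maintenance library. Prpf3 had a fitted change of 0.23 (adjusted p 0.945).

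Prpf31, which tethers U4/U6 to U5, took opposite directions on the 2 platforms. It had 221, 501, 300 and 146 counts, or 33.5, 80.2, 46.4 and 22.0 CPM, highest on PUCL@CNT1 in maintenance medium and lowest on the same platform in differentiation medium. The medium ratio was 0.47 on PUCL (interval 0.21 to 0.73) and -1.87 on PUCL@CNT1 (-2.14 to -1.60). PUCL@CNT1 lay above PUCL in maintenance medium (1.26, 1.03 to 1.49) and below it in differentiation medium (-1.08, -1.37 to -0.79).

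Of the remaining Prpf genes, Prpf18, a factor of the second catalytic step, showed the reverse pattern with 57.0, 43.2, 34.8 and 73.4 CPM. Its medium ratios were -0.71 (interval -0.96 to -0.47) and 0.76 (0.55 to 0.98), and its platform ratio in differentiation medium was 1.07 (0.85 to 1.31). Prpf19, the ubiquitin ligase that names the Prp19 complex, was highest on PUCL@CNT1 in differentiation medium, with 311, 329, 327 and 483 CPM (fitted medium change 0.31, SE 0.212, edgeR adjusted p 0.675). Prpf4b, a kinase of the spliceosome, had 355, 418, 296 and 239 CPM (fitted -0.53, SE 0.22, adjusted p 0.242). Prpf38a and Prpf38b, 2 genes for related spliceosome proteins, had fitted changes of 0.48 and -0.55 (adjusted p 0.67 and 0.462).

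Between platforms no splicing factor gene passed the edgeR threshold with medium as the additive term, where 0.209% of all tested genes were higher and 0.247% lower on PUCL@CNT1. At an unadjusted p under 0.05 there were 7 members (11.3%), 3 higher and 4 lower, in edgeR, 3 in DESeq2 and 9 in limma-voom, none of which passed after adjustment. Over all 10516 genes the same fits gave 731 (6.95%), 633 and 756. The members' median log2 ratio was 0.02 in maintenance medium (all genes 0.03) and -0.01 in differentiation medium (all genes -0.03). By the size rule, 2 members were higher on PUCL@CNT1 in maintenance medium (Hnrnph2 and Prpf31) and 1 lower (Srsf5), 3.23% and 1.61% where all genes gave 12.2% and 13.9%. In differentiation medium 2 were higher (Snrpa1 and Prpf18) and 5 lower (Hnrnph2, Sf3a2, Srsf5, Sf3a1 and Prpf31), 3.23% and 8.06% where all genes gave 15.2% and 15.6%. Srsf5 alone was past the size rule in the same direction in both media. Among genes averaging 300 counts or more (either direction), members gave 0.0% against 3.84% of genes in maintenance medium. In differentiation medium they gave 5.66% against 8.18%. These shares rest on 0 and 3 of 53 members.

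Between the media, the platform difference moved by these sizes for 6 of 62 members (9.68%) against 29.5% of all genes. On the log2 scale it moved downward for Hnrnph2 (-8.45, interval -10.65 to -6.25), Prpf31 (-2.33, -2.70 to -1.97), Sf3a1 (-1.26, -1.66 to -0.87) and Hnrnpul2 (-1.16, -1.57 to -0.74). It moved upward for Prpf18 (1.47, 1.15 to 1.79) and Sf3b4 (1.00, 0.73 to 1.27). These intervals are normal approximations of counting error, which are roughest at the low counts of Hnrnph2. With 1 library per group the change of the platform difference has no test against the scatter between libraries. The members are abundant genes, and the shares of 9.68% and 29.5% were not compared at matched abundance.

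Other genes of the splicing machinery, listed by role and not by prefix, were read for comparison. Of 127 listed, 117 were in the tables and 116 were tested. With medium in edgeR, 0 rose and 3 fell (2.59%), where 1.8% of all tested genes rose and 1.02% fell, and none passed for platform. At an unadjusted p under 0.05 there were 14 for medium (1 higher, 13 lower), which is 12.1% as over all genes, and 10 for platform (8.62% against 6.95% of all genes). Fitted medium changes lay below 0 for 84 of the 116 (72.4%, median -0.20), close to the 71.0% of members and above the 49.8% of all tested genes. Magohb and Scaf11 were among those that fell. Magohb, a core protein of the exon junction complex, fell by 1.88 on the log2 scale (SE 0.437, edgeR adjusted p 0.00441), from 411 and 581 counts to 86 on PUCL and 211 on PUCL@CNT1. Magoh of the same list had more counts (1745, 1962, 1079 and 2310) and did not pass (fitted -0.26, SE 0.234, edgeR adjusted p 0.851). Scaf11, an SR-related protein, fell by 1.14 (SE 0.335, adjusted p 0.0399; counts 836, 728, 319 and 407). By list, fitted changes lay below 0 for 14 of 15 genes of Sm core assembly (median -0.50), 15 of 18 SR-related coactivators and Tra2 genes (-0.25), 7 of 8 exon junction and cap binding genes (-0.29) and 12 of 16 branch point and U1/U2-associated genes (-0.14). They lay below 0 for 4 of 8 minor spliceosome genes (0.03), 5 of 8 Lsm genes (-0.09), 4 of 7 SR kinases (-0.22), 6 of 10 other U5 and tri-snRNP genes (-0.24) and 17 of 26 Prp19 complex and catalytic step genes (-0.10).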

How the data were processed

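Gene expression was measured by 3' end sequencing (Lexogen QuantSeq) in 4 libraries, 1 per combination of platform and medium, grouped by the labels. Deposited tables gave raw counts, whole numbers for each gene symbol without normalization. Bowtie2, bedtools and the rn6 build were used per the submitters' processing notes; versions, annotation, strand setting and the treatment of multiply mapped reads are not given in the sources used here. Genes with near-identical copies (Hnrnph1 and Hnrnph2, Snrpb and Snrpn, and genes with processed pseudogenes) and genes that overlap others are therefore uncertain. The tables held 17048 entries for 16881 symbols; entries of 1 symbol were summed (149 symbols, 0 of them members). No column was left unassigned (0).

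A gene was tested where any library reached 10 counts (10516). Libraries were scaled by TMM in edgeR 4.0.16 (R 4.3.3), with a prior count of 0.5 for ratios of a pair. The edgeR quasi-likelihood fit with platform and medium as additive terms leaves 1 residual degree of freedom and takes both platforms as repeats of the medium change. With 87.2 prior degrees of freedom, its p-values rest mostly on spread pooled over genes. DESeq2 1.42.0 and limma 3.58.1 (voom) were alternatives, beside other scalings, filters, pair size rules and leaving out each library. The code was tested on simulated data. Intervals of pair ratios and of shares are exact 95% (Clopper-Pearson), and those of single levels are exact 95% Poisson intervals. Those of the change of the platform difference are 95% normal approximations. All cover counting error only, since the reads carry no molecular identifiers. Whether libraries came from separate cultures is not stated in the labels.

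Named genes were those past the edgeR threshold or the size rule, the 2 of each prefix family with the highest mean CPM, Snrpb, Snrpn, U2af1 and U2af2, and, among other splicing genes, those past the edgeR threshold. Snrnp70 and Magoh were named after their values were seen. The members, lists, roles and motifs were chosen with earlier results of these data known. Values of some single genes are not reported here, and they count in totals only. Sequences are RefSeq windows on GRCr8, matched by symbol.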

Additional observations from a re-analysis of the deposited data

Results flagged for a closer look

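For 15 of the 62 tested splicing factor genes (24.2%), the medium ratio lay beyond counting error in opposite directions on PUCL and PUCL@CNT1, against 18.7% of all tested genes. Among genes averaging 300 counts or more, this was so for 11 of 53 members (20.8%) and 18.7% of genes. The value given is the log2 change of the platform difference from maintenance to differentiation medium, and with 1 library per group none of these differences was tested. It was downward for Hnrnph2 (-8.45, with 3 counts in each of 2 libraries), Prpf31 (-2.33), Sf3a1 (-1.26), Hnrnpul2 (-1.16), Srsf11 (-0.86), Hnrnpul1 (-0.64), Sf3b6 (-0.63), Srsf6 (-0.40) and Sf3b2 (-0.22). It was upward for Prpf18 (1.47), Sf3b4 (1.0), Snrpb (0.87), Sf3a3 (0.54), Snrpg (0.52) and Hnrnpl (0.22). For Hnrnpl, whose ratio on PUCL@CNT1 was 0.10, the ratio under total counts was 0.0. Hnrnpul1 and Srsf6 were chosen after their values were seen.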

How the results depend on the processing

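Among splicing factor genes, the number past the threshold for medium was 2 in edgeR with TMM. It was 1 (U2af1) with DESeq2 size factors in edgeR, with TMM without ribosomal RNA entries, with no filter, with a mean of 300 counts or more, in DESeq2, and with the platform term left out, 3 in limma-voom (Hnrnpa3, Prpf40b and U2af1), and 4 with total counts (Hnrnpa3, Prpf40b, Srsf10 and U2af1). With the platform term and each library left out in turn it was 0 to 1, and neither U2af1 nor Prpf40b was called; the 1 came without the PUCL@CNT1 differentiation library. The number for platform was 0 in every setting run. With a laxer size rule of 1.5-fold, the members past it were 15 on PUCL and 16 on PUCL@CNT1 for medium, and 6 in maintenance and 14 in differentiation medium for platform, against 5, 4, 3 and 7. Limited to a mean of 300 counts or more they were 3, 2, 0 and 3. No called value changed sign in any setting run; the ratio of Snrpe on PUCL@CNT1, which was not called, was 0.06 with TMM and -0.04 with total counts. Total counts moved the median of all genes from -0.02 to -0.12 on PUCL@CNT1. The fit pairs libraries by platform through its additive term. No further paired analysis was possible because each group is 1 library with no replicate number. Where a call changed, the cause was not tested. Depth limits Hnrnph2, U2af1l4 and Srsf5 most, which had under 100 counts in at least 2 libraries each.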
